A study of Mus musculus with 15 samples.

Results

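The genes that encode the proteins of the cytosolic ribosome were described in single cells of the mouse striatum, a forebrain region that is a main target of antipsychotic drugs. They were chosen by symbol alone: every row named Rpl or Rps with a number, Rplp0 to Rplp2, or Rpsa, leaving out rows marked as pseudogenes and the Rps6k kinases. The rule gave 85 of the 15932 genes in the deposited table. Of these, 77 encode standard subunits, and 8 are paralogues or symbol matches outside the ribosome (Rpl22l1, Rps27l, Rpl3l, Rpl39l, Rpl36al, Rpl7l1, Rps27rt and Rps19bp1). The cells came from 15 male C57BL/6J mice bought at 8 weeks of age and treated for 28 to 29 days. Of them, 5 carried implanted haloperidol pellets, 5 received olanzapine in food and 5 received placebo, with no genetic change in any group. Each mouse was a separate 10x Genomics library, in which droplets barcode single cells and the 3′ ends of their RNAs. The labels do not say how the placebo was given, so pellet surgery and diet cannot be told apart from the drug.

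After filtering, 5266 cells and 17887077 unique molecular identifiers (UMIs, single counted RNA molecules) were used. A mouse contributed between 70 and 1172 cells, holding between 215990 and 4235427 UMIs. The 4 mice with the fewest cells were all drug-treated: olanzapine 1 and 2 and haloperidol 1 and 2, with 70 to 122 cells. Every placebo mouse had at least 165. They also carry mouse numbers 1 to 4 in the labels, and the other drug-treated mice gave 224 to 1172 cells. In the 4 mice a low yield cannot be told apart from the drug or from the place in the numbering. Before filtering, placebo 5 shared 110 cell barcodes with placebo 3, of which 109 had the same class in both, and 101 with placebo 2, all of the same class. The shared cells held a median of 1253 UMIs in placebo 5 and 4180 in placebo 3, and of 1611 UMIs in placebo 5 and 4995 in placebo 2. No other pair of libraries shared more than 2. The 211 shallower copies were left out of placebo 5, a choice made after seeing the data, and the microglial and vascular results are also given for other treatments of these cells. The authors' 7 classes were used, with at least 10 cells per mouse. Of the glial classes, the one labelled olig precursor carried the myelin genes (Mog at 2579 counts per 1000000 UMIs, CPM, and Pdgfra at 0.75 CPM), and the one labelled oligodendrocyte carried precursor genes (Pdgfra at 889 CPM, Cspg4 at 348 CPM). The class labelled other held vascular cells (Cldn5 at 3879 CPM, Vtn at 5440 CPM).

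A ribosome joins a small (40S, Rps) and a large (60S, Rpl) subunit, each built from ribosomal RNA and many proteins made in near-equal amounts. In mammals the mRNAs of these proteins begin with a run of pyrimidines (C and T in the DNA), called a TOP motif, through which the growth-controlling kinase mTOR adjusts their translation together. Proliferating and growing cells carry many ribosomes, and a few proteins have paralogues that replace them in particular tissues. The counting method reads 3′ ends, so a level in CPM is not scaled by transcript length.

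The start sites of the members on which the results turn are shown first, because of the run of pyrimidines described for this gene family. Sequences are from RefSeq promoters on GRCm38.p6, in which 65 of the 85 members were matched. Each line runs 5′ to 3′ on the gene's strand, with 30 bases before the annotated start and 20 after it. Capitals mark the longest run of at least 7 letters that are all C or T and that lies within 5 bases of the start.
Rpl12: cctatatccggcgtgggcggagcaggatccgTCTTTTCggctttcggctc
Rpl28: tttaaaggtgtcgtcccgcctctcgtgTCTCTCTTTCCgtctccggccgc
Rps24: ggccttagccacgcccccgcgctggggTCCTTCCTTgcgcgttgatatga
Rpl35: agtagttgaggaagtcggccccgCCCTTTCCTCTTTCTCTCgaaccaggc
Rpl13a: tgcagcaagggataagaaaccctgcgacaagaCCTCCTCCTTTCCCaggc
Rpl13: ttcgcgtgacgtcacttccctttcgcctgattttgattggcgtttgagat
Rpl22: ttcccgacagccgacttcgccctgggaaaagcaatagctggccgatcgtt
Rpl22l1: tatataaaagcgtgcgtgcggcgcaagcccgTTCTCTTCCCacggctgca
Rps27: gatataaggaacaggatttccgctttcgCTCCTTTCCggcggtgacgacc
Rps27l: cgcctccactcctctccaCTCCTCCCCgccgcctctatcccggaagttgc

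These windows lie at chr2:32961682-32961731 on the plus strand (Rpl12), chr7:4792935-4792984 plus (Rpl28), chr14:24490648-24490697 plus (Rps24) and chr2:39005112-39005161 minus (Rpl35). The others lie at chr7:45128726-45128775 minus (Rpl13a), chr8:123102320-123102369 plus (Rpl13), chr4:152325696-152325745 plus (Rpl22), chr3:28805478-28805527 plus (Rpl22l1), chr3:90213629-90213678 minus (Rps27) and chr9:66946056-66946105 plus (Rps27l). Such a run was found in 29 of the 65 matched members (44.6%), against 1998 of the 11894 table genes with a promoter (16.8%). It was 18 letters long in Rpl35 and 7 in Rpl12. In Rps27l the run of 9 letters began 12 bases before the annotated start and ended before it. The rule thus counts runs near the start, which need not be TOP motifs of the mRNA. On either strand of the 300-base promoter, CCGGAA, the core bound by ETS factors, was found in 55.4% of members and 28.2% of all genes. ATGGCG, a core of YY1 sites, was found in 30.8% of members and 16.3% of all genes. TATAAA was found in 10.8% of members and 9.04% of all genes. Each motif was counted separately, whether or not it overlapped another.

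The members together took 8.17% of all UMIs, and their share ordered the cell classes in most mice. It averaged 15.995% ± 2.00 (SD, n = 14 mice) in neuroblasts, the immature neurons of the adult forebrain, and 14.5% ± 2.13 (n = 13) in microglia, the brain's resident macrophages. It was 10.1% ± 1.54 (n = 12) in the vascular class labelled other. The share was 5.48% ± 0.820 (n = 9) in the class labelled olig precursor, 5.22% ± 1.43 (n = 15) in neurons and 4.87% ± 0.540 (n = 11) in the class labelled oligodendrocyte. Astrocytes were lowest, at 2.85% ± 0.729 (n = 15). Neuroblasts exceeded microglia in 10 of 12 mice with both classes, and olig precursor exceeded neurons in 5 of 9, so neither pair was clearly ordered. Microglia exceeded the class labelled other in 10 of 11 mice, and all 15 mice had a higher share in neurons than in astrocytes.

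**Figure D1:**
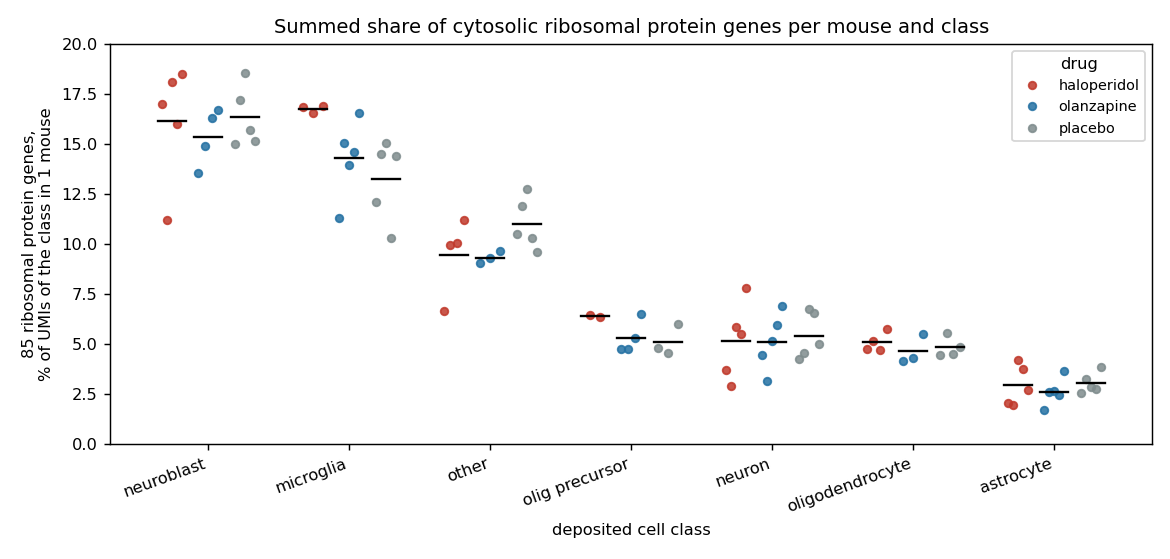
Share of UMIs (y axis, %) from the 85 ribosomal protein genes in each mouse (points) of each class (x axis), with haloperidol, olanzapine and placebo mice side by side and the mean of each group as a line. Neuroblasts average 15.995% and astrocytes 2.85%, and in microglia the 3 haloperidol mice lie above all 5 placebo mice.

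New clusters, made without the members, split the vascular class. The share was 15.9% in neuroblast-like cells, 15.4% in cycling progenitor-like cells, which express mitosis genes, and 14.3% in microglia-like cells. Among vascular cells it was 11.9% in 255 endothelial-like cells and 10.1% in 87 smooth muscle-like cells. It was 6.23% in 107 pericyte-like cells and 6.57% in 50 fibroblast-like cells. Within microglia the share also varied between cells, with a median of 13.4% and quartiles of 7.61% and 17.8%. It moved with depth there: the 212 microglia with the fewest UMIs (median 1430) had a median share of 5.95%, and the 211 with the most (median 5876) had 16.8%. In neurons, the 228 with the fewest UMIs had 5.44% and the 228 with the most had 5.13%.

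Most members were lowest in astrocytes, while the class of their peak varied. Of the 83 members with over 100 UMIs, 55 had their highest mean level in neuroblasts and 25 in microglia, and 77 had their lowest in astrocytes. On the log2(CPM + 10) scale the highest class exceeded the lowest by a median of 2.51, and by 1.15 to 3.72 over these members. The widest range was that of Rplp0, the scaffold of the stalk that recruits elongation factors, at 3264 ± 346 CPM in neuroblasts (n = 14) and 239 ± 47.6 CPM in neurons (n = 15). Its stalk partner Rplp1 peaked elsewhere, at 3908 ± 779 CPM in microglia (n = 13) and 1639 ± 380 CPM in neuroblasts. Rps4x, the X-linked 40S protein, had 2660.3 CPM in neuroblasts and 2601 CPM in microglia, against 278 CPM in astrocytes. Rpl10, which is added late to the 60S subunit, peaked in microglia at 2846 CPM and was at 310.4 CPM in astrocytes. These with Rps27l, described with the paralogues, were among the 6 widest.

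The member with the highest mean over classes was Rps29, a small 40S protein, at 7548 ± 1408 CPM in microglia (5251 to 9773 over 13 mice). Neuroblasts had 3843 CPM of it and astrocytes 880.0 CPM. Rpl41, the shortest ribosomal protein, had 4294 CPM in neuroblasts and 3931 CPM in the class labelled other, against 1117 CPM in astrocytes. Rps27, a 40S protein with a zinc finger, had 3972 CPM in microglia, against 687 CPM in astrocytes. These highly ranked members thus shared the low level in astrocytes but not the class of their peak.

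**Figure D2:**
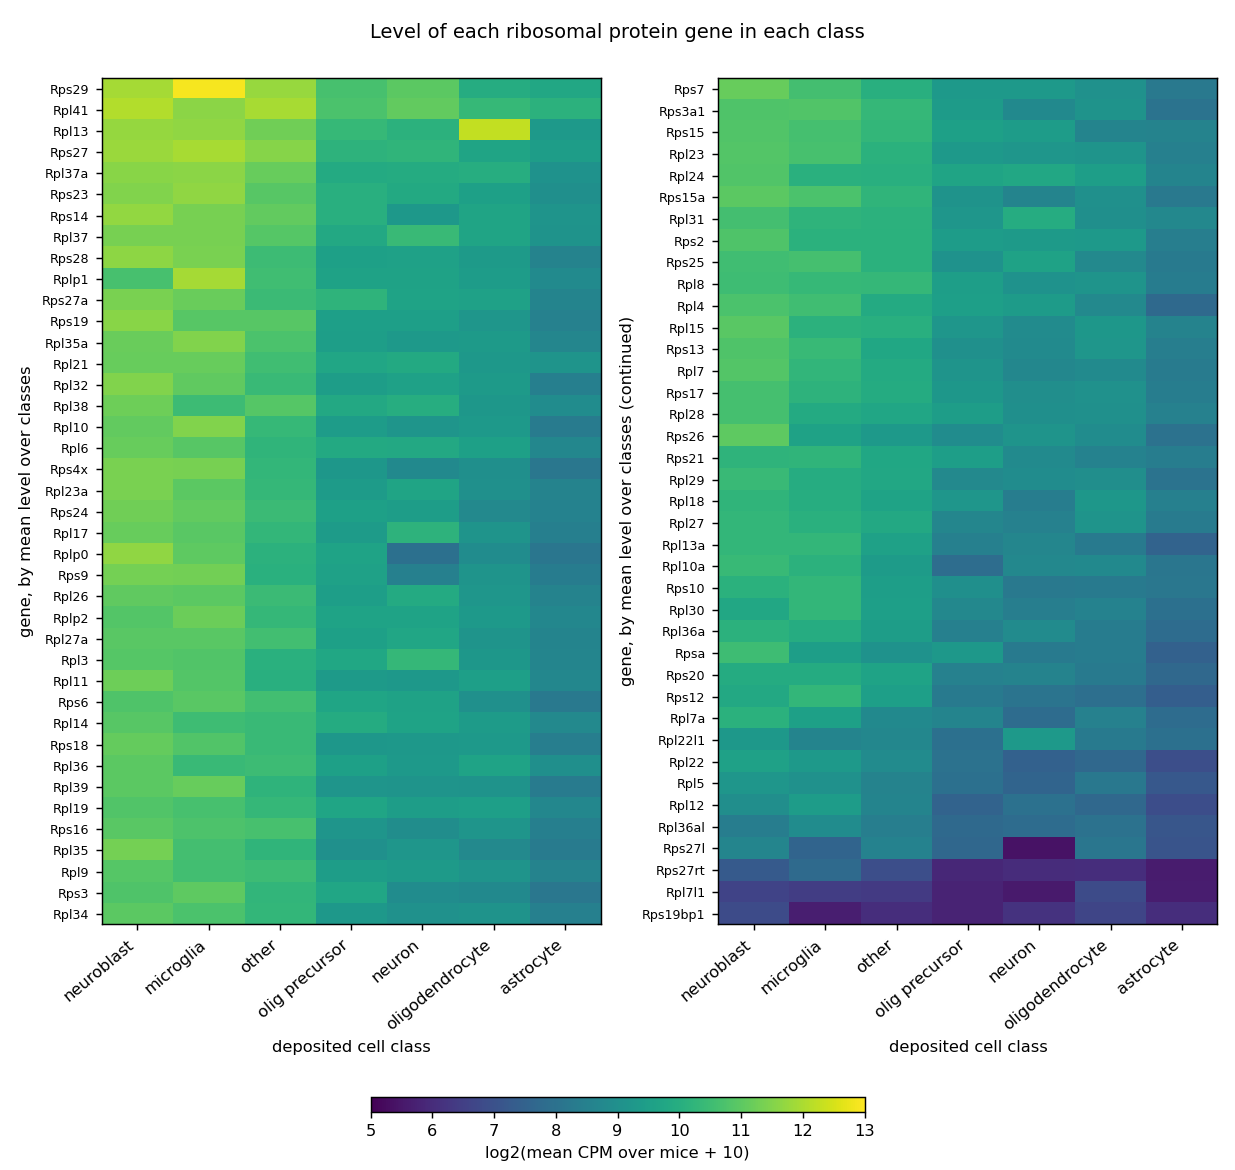
Mean level over mice of each of 79 of the 83 members with over 100 UMIs (rows, from highest to lowest mean) in each deposited class (columns), coloured by log2(mean CPM + 10). Most rows fade from left to right, and Rpl13 in the class labelled oligodendrocyte, at 4906 CPM, breaks the pattern.

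Rpl13, a 60S protein, departed most from the sum of the members. In the class labelled oligodendrocyte, which carries precursor markers, it averaged 4906 ± 745 CPM (n = 11 mice, range 3840.3 to 6028). It had 3385 ± 308 CPM in neuroblasts (n = 14), 3232 ± 460 CPM in microglia (n = 13) and 1308 ± 228 CPM in the myelin-bearing class labelled olig precursor (n = 9). Its lowest value in the precursor-bearing class exceeded its highest in neuroblasts (3814 CPM), so these classes did not overlap. Microglia reached 3972 CPM. The summed share of the members was 4.87% in that class and 15.995% in neuroblasts. Relative to the sum of the members, Rpl13 was higher there by 1.85 on the log2 scale than its mean over classes. The next largest departures in standard subunits were those of Rplp0 in neurons (−1.23) and in neuroblasts (0.87), and of Rpl10a in the class labelled olig precursor (−0.84).

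Rpl13 lies at chr8:123102350-123105244 on the plus strand (GENCODE vM21, mm10), within the annotated readthrough gene Gm20388 and with the small nucleolar RNA Snord68 inside it. Of the 31-base words in the last 300 bases of its transcript, 84.4% also occur in other annotated genes, most of them in Gm12918. Its counts, like those of 43 of the 85 members that share at least 50% of such words, therefore depend on how the authors' counting treated reads with several possible sources. Rpl12, Rpl28, Rps24, Rpl13a and Rplp0 share 0%. Rpl35 shares 96.7%, and Rps27 and Rpl36a share 100%.

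Some paralogues peaked in another class than their partners. Rpl22l1, the paralogue of the 60S RNA-binding protein Rpl22, had its highest mean in neurons, at 624 ± 242 CPM (n = 15), beside 607 ± 163 CPM in neuroblasts. Rpl22 itself had 170.0 ± 42.6 CPM in neurons and 752 ± 149 CPM in neuroblasts. The ratio of Rpl22l1 to Rpl22 UMIs had a median over mice of 4.00 in neurons (1.87 to 5.54, n = 15) and of 2.26 in astrocytes (1.35 to 4.25, n = 15). It was 1.47 in the class labelled oligodendrocyte (0.909 to 2.40, n = 11), 0.758 in neuroblasts (0.241 to 1.33, n = 14) and 0.585 in microglia (0.435 to 1.11, n = 13). Every neuron value thus lay above every microglial value. As background, Rpl22 is known to hold down Rpl22l1 in mice. The 3′ end of Rpl22 is unique, while 65.9% of the words in that of Rpl22l1 occur elsewhere, most of them in Gm15421.

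**Figure D3:**
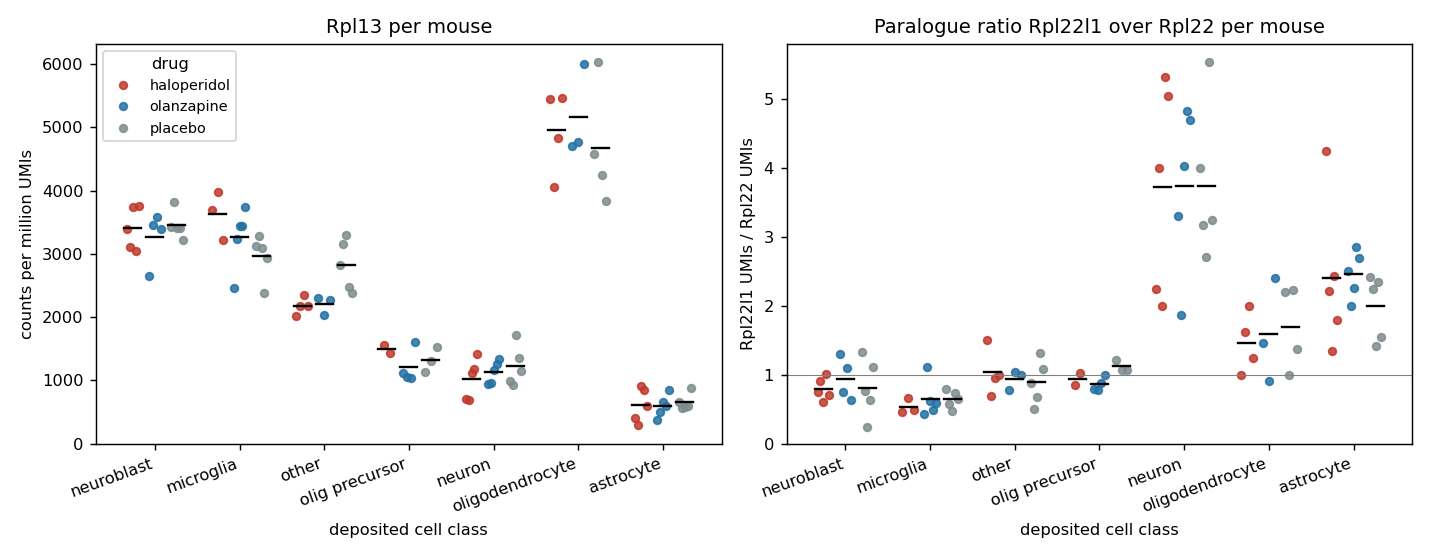
Left, Rpl13 level (CPM, y axis) in each mouse (points, with group means as lines) by deposited class. Right, the ratio of Rpl22l1 to Rpl22 UMIs in the same way, with a line at a ratio of 1. Rpl13 is highest in the class labelled oligodendrocyte (3840.3 to 6028 CPM), and the paralogue ratio is highest in neurons (median 4.00), with the 3 drug groups intermingled in both.

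Rps27l, a paralogue of Rps27 induced by p53, was at 32.3 ± 13.1 CPM in neurons (n = 15), against 385 ± 99.2 CPM in neuroblasts (n = 14) and 362 ± 87.6 CPM in the class labelled other (n = 12). Its median ratio to Rps27 was 0.0255 in neurons and 0.319 in the class labelled oligodendrocyte. Rps27rt, an intronless copy of Rps27, stayed at a ratio of 0.0350 to 0.0656 to Rps27 in all classes by medians, and 90.7% of the words in its 3′ end occur in other genes. Rpl36al ranged from 131 CPM in astrocytes to 461 CPM in microglia. Rpl7l1, a relative of Rpl7 that acts in ribosome assembly, had its highest mean of 104 CPM in the class labelled oligodendrocyte and 38.0 CPM in neurons. Rps19bp1, which is not a subunit but binds Rps19, was the only member lowest in microglia, at 41.1 CPM, with 104 CPM in neuroblasts. Rpl3l, a muscle paralogue of Rpl3, had 9 UMIs in all cells, and Rpl39l, a testis paralogue of Rpl39, had 14, of which 11 were in microglia.

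Whether chronic haloperidol or olanzapine changed these genes was tested per class with counts summed over each mouse. With edgeR's quasi-likelihood test and an adjusted p under 0.05, 0 members were called against placebo for haloperidol in 494 tests over 6 classes, where 0.00518% of all gene tests were called. For olanzapine, 0 were called in 574 tests over 7 classes, beside 0% of all gene tests. Between haloperidol and olanzapine, 0 of 494 were called, beside 0%. At an unadjusted p under 0.05 there were 41 members for haloperidol against placebo (3.65% of all gene tests), 6 for olanzapine against placebo (3.35%) and 13 for haloperidol against olanzapine (3.4%). DESeq2 also called 0 members, beside 0.0155%, 0.0318% and 0% of all gene tests in the same order of comparisons. It gave 42, 4 and 12 members at that p (2.2%, 1.97% and 1.75% of all gene tests). The single gene test called by edgeR was not that of a member. All values below are therefore fold changes that did not pass the test.

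**Figure D4:**
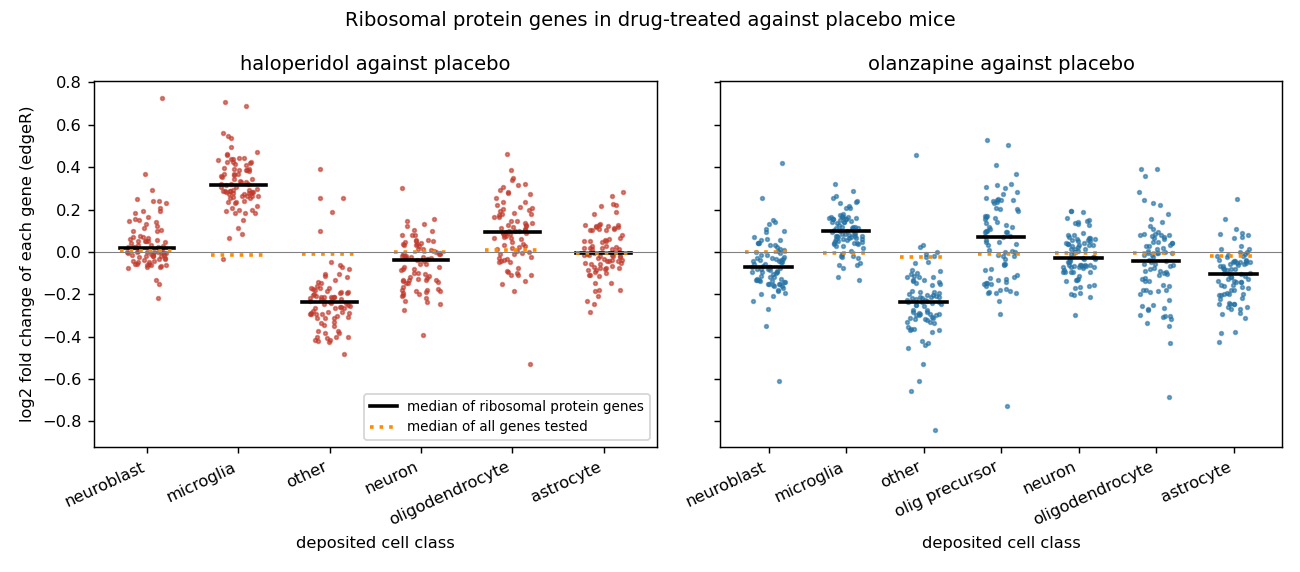
Log2 fold change (y axis) of each ribosomal protein gene tested (points) in haloperidol (left) and olanzapine mice (right) against placebo, by class, with the median of these genes (black) and of all genes tested (orange, dotted). For haloperidol, the medians are 0.32 in microglia and −0.23 in the class labelled other.

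In microglia, the members had higher values in haloperidol than in placebo mice almost without exception. Their summed share was 16.9%, 16.5% and 16.9% in haloperidol mice 3, 4 and 5, and 12.1%, 14.5%, 15.1%, 10.3% and 14.4% in placebo mice 1 to 5, so the groups did not overlap. Haloperidol 1 and 2 had under 10 microglia each and are not in the fit. The log2 fold change was above 0 in 82 of the 83 members tested, against 48.3% of all 2995 genes. Its median was 0.32, and over all genes −0.02. An unadjusted p under 0.05 was reached by 34 members (5.44% of all genes), and in 34 every haloperidol mouse lay above every placebo mouse (3.21% of all genes). Here and in the other classes, all members were read in the same few mice. Such counts of members are therefore not counts of independent observations. The smallest adjusted p was 0.797, and 0.0957 with DESeq2.

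The 3 members with the smallest p were Rpl12, Rpl28 and Rps24. Rpl12, at the base of the 60S stalk, had 936, 829 and 909 CPM in haloperidol mice, against 459.9, 611, 683, 360.4 and 613 CPM in placebo mice. The log2 fold change was 0.71 ± 0.21 (SE, edgeR adjusted p = 0.797). Rpl28, another 60S protein, had 1215, 1163 and 1305 CPM in haloperidol mice, against 678, 728, 988, 740.0 and 1032 CPM in placebo mice (0.55 ± 0.18, edgeR adjusted p = 0.797). Rps24, a 40S protein, had 2552, 2608 and 2982 CPM in haloperidol mice, against 1583, 2066, 2129, 1338 and 2213 CPM in placebo mice (0.54 ± 0.17, edgeR adjusted p = 0.797). In all 3, every haloperidol mouse lay above every placebo mouse. For Rpl12, olanzapine mice spanned both groups, with 369 to 1005 CPM. For Rpl28, they had 737 to 1056 CPM, below every haloperidol mouse.

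The microglial difference was smaller with the copied cells kept in placebo 5 as deposited, with a median of 0.24, 80 of 83 members higher and 10 at an unadjusted p under 0.05. With both copies removed it was 0.34, with 80 higher and 24 at that p. Placebo 4 and placebo 1 had the lowest shares, and without placebo 4 the median was 0.24. The 34 members at an unadjusted p under 0.05 became 12 without haloperidol 5, 18 without haloperidol 3, placebo 1 or placebo 4, and 47 without placebo 3. In the main fit 5.44% of all genes were at that p. The shares of all genes in the other fits are not given. These counts therefore show only that the number varied with the cells and mice used. Median UMIs per microglial cell were 2683 to 3594.5 in haloperidol and 2901 to 4083.5 in placebo mice. Mitochondrial shares were 1.52% to 1.64% in haloperidol and 1.03% to 1.93% in placebo mice, and levels of Malat1, a nuclear RNA, were 26443 to 36620 CPM in haloperidol and 28763 to 39260 CPM in placebo mice. The 7 microglial markers summed to 37358 to 43896 CPM in haloperidol mice and 42205 to 50586 CPM in placebo mice. The 7 neuroblast markers summed to 13.4 to 17.5 CPM in haloperidol and 0 to 12.9 CPM in placebo microglia, and the 3 macrophage markers to 0 to 64.1 CPM in haloperidol and 0 to 20.4 CPM in placebo microglia. The 6 fibroblast markers were at 0 in both. The other lists differed in direction. The 8 neuron markers summed to 81.5 to 199 CPM in haloperidol and 56.3 to 168 CPM in placebo microglia. The 7 astrocyte markers summed to 111 to 175 CPM in haloperidol and 91.0 to 234 CPM in placebo microglia. The 5 red blood cell markers were at 0 in haloperidol and at 0 to 122 CPM in placebo microglia. The part of depth, quality and marker levels in the result was not tested.

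In microglia, 4 of the 5 olanzapine mice lay within the placebo range. Their summed share was 11.3%, 15.0%, 13.95%, 14.6% and 16.5% in olanzapine mice 1 to 5, beside 10.3% to 15.1% in placebo mice. Against placebo, 72 of 83 members were higher (49.4% of all genes), with a median of 0.10 and 0 at an unadjusted p under 0.05 (2.8% of all genes). With the copied cells kept the median was 0.01, with 42 higher. Without placebo 4 it was 0.02, with 47 higher, and without olanzapine 1 or placebo 3 it was 0.16. The smallest p values were those of Rpl7, Rpl4 and Rpl12, with log2 fold changes of 0.26 ± 0.15, 0.24 ± 0.14 and 0.32 ± 0.19 (edgeR adjusted p = 1.00 each). Rpl4, a 60S protein of the exit tunnel, had 1457 to 1659 CPM in olanzapine mice and 1207 to 1454 CPM in placebo mice, the only member without overlap there (0.167% of all genes lay wholly above). Haloperidol against olanzapine gave 79 of 83 members higher (50% of all genes), a median of 0.24 and 8 members at an unadjusted p under 0.05 (6.08%). In 12 members every haloperidol mouse lay above every olanzapine mouse (2.24%). The smallest p values were those of Rpl28 (0.50 ± 0.18), Rplp1 (0.41 ± 0.16) and Rpl35 (0.45 ± 0.19; edgeR adjusted p = 0.743 to 0.747). These comparisons share mice, so their medians are not independent.

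**Figure D5:**
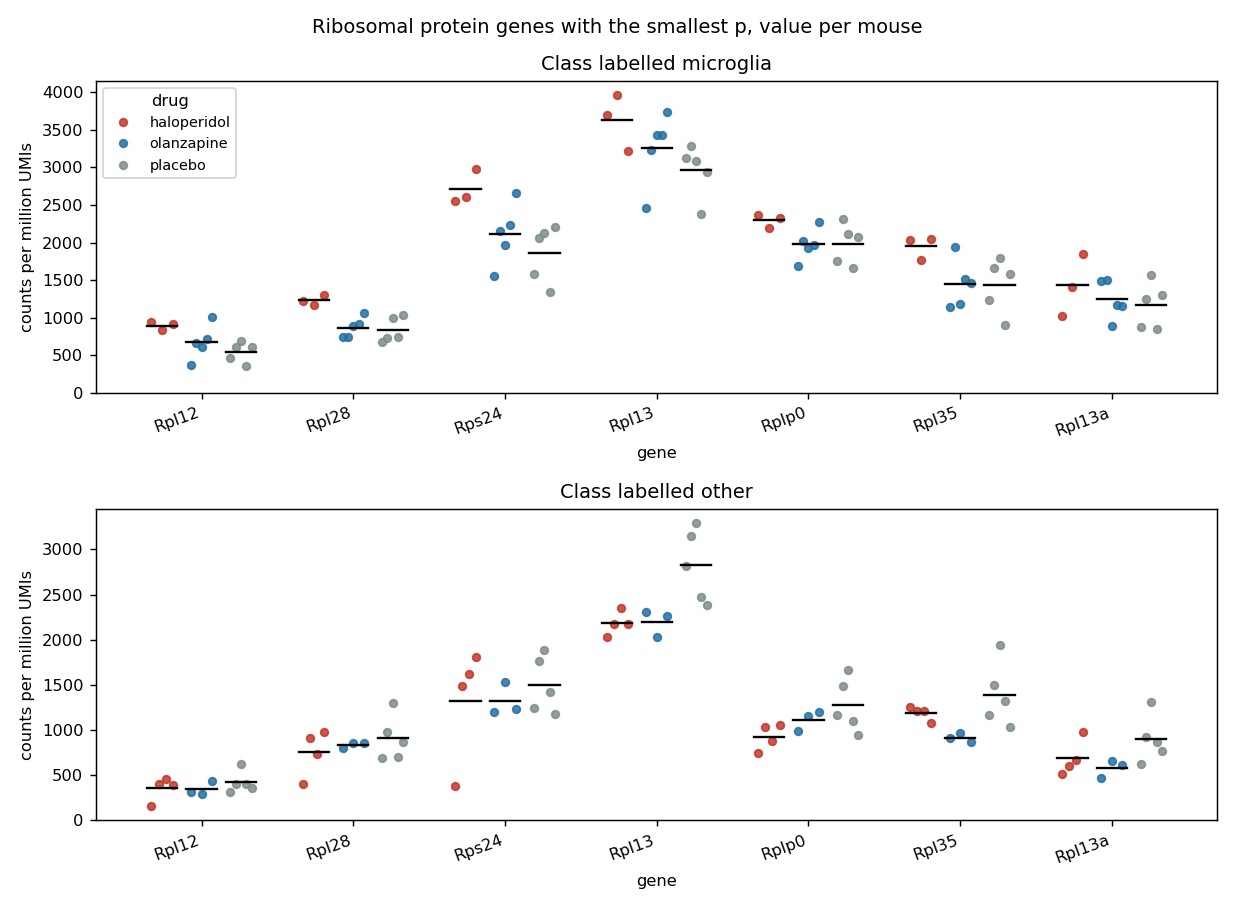
Level (CPM, y axis) of 7 members, chosen for a small p against placebo in either class, in microglia (top) and in the class labelled other (bottom), in each mouse (points), with group means as lines. Haloperidol points lie above all placebo points for Rpl12, Rpl28 and Rps24 in microglia, and olanzapine points lie below all placebo points for Rpl35 in the class labelled other.

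In the vascular class labelled other, most members had lower values with either drug. The summed share was 6.63%, 9.93%, 10.1% and 11.2% in haloperidol mice 2 to 5, then 9.02%, 9.30% and 9.63% in olanzapine mice 3 to 5, and 10.5%, 11.9%, 12.7%, 10.3% and 9.58% in placebo mice 1 to 5. Both drug groups overlapped placebo, since 3 haloperidol mice and 1 olanzapine mouse lay above placebo 5. Against placebo, 5 of 83 members were higher and 78 lower for haloperidol (48.9% of all genes higher), and 4 higher and 79 lower for olanzapine (47.8%), with a median of −0.23 for each. Over all genes the medians were −0.01 and −0.02. An unadjusted p under 0.05 was reached by 5 members for haloperidol (4.29% of all genes) and by 5 for olanzapine (7.16%). These counts varied with the cells and mice used. With the copied cells kept they were 18 for haloperidol (5.93% of all genes) and 16 for olanzapine (9.71%), and with both copies removed 0 and 0 (2.25% and 3.92%). Leaving out single mice gave 1 (without placebo 2) to 15 (without haloperidol 5) for haloperidol, with 10 without placebo 5 and 3 without haloperidol 4 or placebo 3. For olanzapine it gave 2 (without olanzapine 3, olanzapine 4 or placebo 3) to 11 (without haloperidol 2, which shares the fit), with 3 without haloperidol 3 or placebo 2. The shares of all genes in the fits without single mice are not given. Those counts therefore show only that the number varied with the mice used. In 2 members all haloperidol mice were below all placebo mice (1.09% of all genes). Every olanzapine mouse lay below every placebo mouse in 16 members (3.27% of all genes).

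For haloperidol the smallest p values were those of Rpl13, Rplp0 and Rpl3. Rpl13 had 2025, 2176, 2351 and 2173 CPM in haloperidol mice, against 2817, 3151, 3293, 2474 and 2380.1 CPM in placebo mice, without overlap (−0.40 ± 0.16, edgeR adjusted p = 0.995). Rplp0 (−0.48 ± 0.19) and Rpl3, a core 60S protein (−0.40 ± 0.17), had the same adjusted p, and in both at least 1 haloperidol mouse reached the placebo range. For olanzapine Rpl35 and Rpl13a had the smallest. Rpl35, a 60S protein at the tunnel exit, had 915, 968 and 867 CPM in olanzapine mice, against 1164, 1494, 1942, 1317 and 1029 CPM in placebo mice, without overlap (−0.61 ± 0.21, edgeR adjusted p = 0.443). Rpl13a, which also takes part in the GAIT complex of translational control, had 469, 657 and 609 CPM in olanzapine mice, against 623, 918, 1309, 868 and 764 CPM in placebo mice (−0.66 ± 0.25, edgeR adjusted p = 0.550).

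These values rested on few libraries. Haloperidol 2 had 12 cells in this class, and without it the median was −0.10. With the copied cells kept the medians were −0.34 for haloperidol and −0.31 for olanzapine, and with both copies removed −0.10 and −0.08. Rplp0 in haloperidol mice was at −0.53 and −0.22 under these treatments, Rpl13 at −0.48 and −0.25, and Rpl35 in olanzapine mice at −0.77 and −0.39 (edgeR adjusted p = 0.123 to 1.00). In endothelial-like cells alone the medians were −0.11 and −0.27. The shares of vascular cell types within the class varied between mice, and those of either drug group overlapped those of placebo mice. Pericyte-like cells were 17.1% ± 6.72 in haloperidol mice (n = 4), 28.7% ± 4.03 in olanzapine mice (n = 3) and 15.996% ± 12.6 in placebo mice (n = 5). Endothelial-like cells, which have the higher ribosomal share, were 52.6% ± 11.0 in haloperidol, 47.0% ± 9.34 in olanzapine and 54.6% ± 13.6 in placebo mice. Smooth muscle-like cells were 20.9% ± 9.21 in haloperidol, 16.4% ± 3.47 in olanzapine and 18.7% ± 8.37 in placebo mice. The 5 smooth muscle markers summed to 4522 to 7604 CPM in haloperidol, 6715 to 10739 CPM in olanzapine and 1745 to 4551 CPM in placebo mice. The part of these cell types in the result was not tested.

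Whether each drug's effect differed between microglia and the class labelled other was tested within mice with limma. For both drugs, microglia had the highest median against placebo of the classes tested and the class labelled other the lowest. A difference above 0 in most members thus follows in part from the choice of these classes. In 83 members, the microglial minus vascular difference was above 0 in 81 for haloperidol (median 0.44, n = 3 haloperidol and 5 placebo mice) and in 81 for olanzapine (median 0.42, n = 3 and 5). The medians over all 1928 genes were 0.06 and 0.04. Again 0 members were called for either drug, with 28 and 15 at an unadjusted p under 0.05, beside 0% of all genes called in both and 7.83% and 6.12% at that p. For haloperidol the smallest p values were those of Rpl18 (0.70 ± 0.23), Rpl13 (0.65 ± 0.22) and Rpl12 (0.73 ± 0.26), with limma adjusted p = 0.592. For olanzapine they were those of Rpl12 (0.75 ± 0.26), Rps20 (0.70 ± 0.24) and Rpl36a (0.60 ± 0.22), with limma adjusted p = 0.724. Both drugs were set against the same placebo mice.

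In the remaining classes the medians against placebo lay between −0.10 and 0.09. Leaving out single mice changed the sign for haloperidol in neuroblasts, neurons and astrocytes, and for olanzapine in neurons and in both oligodendrocyte-lineage classes. With both copies of the shared cells removed the sign changed for haloperidol in astrocytes (0.07), neuroblasts (−0.01) and neurons (0.0049), and for olanzapine in neurons (0.04) and in the class labelled oligodendrocyte (0.04). With the copied cells kept it changed for haloperidol in neuroblasts (−0.01) and in the class labelled oligodendrocyte (−0.01). For haloperidol against placebo they were 0.02 in neuroblasts, 0.09 in the class labelled oligodendrocyte, −0.04 in neurons and −0.01 in astrocytes. For olanzapine they were −0.07 in neuroblasts, −0.04 in the class labelled oligodendrocyte, −0.03 in neurons, −0.10 in astrocytes and 0.07 in the class labelled olig precursor. Only 2 haloperidol mice had enough cells of the last class (6.44% and 6.32% summed share), so haloperidol was not tested there. Astrocytes of olanzapine mice had 70 of 82 members lower than placebo, with Rpl8 (−0.42 ± 0.24), Rpl35 (−0.38 ± 0.22) and Rpl13a (−0.38 ± 0.25) at the smallest p (edgeR adjusted p = 1.00). Olanzapine 1 and 2, among the mice with the fewest cells, had 14 astrocytes each. Their summed shares were 1.69% and 2.57%, beside 2.53% to 3.82% in placebo mice. In neuroblasts of haloperidol mice the smallest p was that of Rpl7l1, with 86.7 to 125 CPM in haloperidol mice (n = 5) and 53.5 to 86.3 CPM in placebo mice (n = 5), without overlap, as in 0.355% of all genes (0.73 ± 0.29, edgeR adjusted p = 1.00). In neuroblasts of olanzapine mice it was that of Rps27rt (−0.61 ± 0.32), and in the class labelled oligodendrocyte it was that of Rps4x (0.39 ± 0.21; edgeR adjusted p = 1.00 and 0.997).

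In the class labelled oligodendrocyte of haloperidol mice, Rps27a, which encodes a ubiquitin fused to a 40S protein, had the smallest p. It had 920.1 ± 128 CPM in haloperidol mice (n = 4), against 710 ± 107 CPM in placebo mice (n = 4; 0.39 ± 0.19, edgeR adjusted p = 0.998). In the class labelled olig precursor of olanzapine mice it was Rpl12, with 93.1 to 169 CPM in olanzapine mice (n = 4) and 165 to 238 CPM in placebo mice (n = 3; −0.73 ± 0.31, edgeR adjusted p = 1.00). Its direction there was the opposite of that in microglia of the same drug (0.32 ± 0.19), a difference that was not tested. Between haloperidol and olanzapine, the medians were 0.11 in neuroblasts, 0.12 in the class labelled oligodendrocyte, 0.11 in astrocytes, −0.05 in neurons and −0.00 in the class labelled other. The sign changed in astrocytes without haloperidol 3 (−0.07), in neurons without haloperidol 1 (0.02), haloperidol 2 (0.08) or olanzapine 5 (0.05), and in the class labelled other without haloperidol 2 (0.11). The Rpl13 level in the class labelled oligodendrocyte and the Rpl22l1 to Rpl22 ratio in neurons overlapped between all 3 groups, and that ratio had medians of 4.00 in haloperidol, 4.03 in olanzapine and 3.24 in placebo mice. Over the classes tested against placebo, the log2 fold change of Rpl22l1 lay between −0.29 and 0.17, that of Rps27l between −0.40 and 0.27 and that of Rpl36al between −0.43 and 0.37.

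Counts at an unadjusted p in these classes were at or below the background, while counts above 0 departed from it in several. For haloperidol against placebo, members above 0 and at an unadjusted p under 0.05 were 39 and 0 of 82 in astrocytes (49.6% and 3.72% of all genes) and 45 and 1 of 83 in neuroblasts (51.1% and 2.97%). They were 26 and 0 of 81 in neurons (49.6% and 2.43%) and 61 and 1 of 82 in the class labelled oligodendrocyte (51% and 3.29%). For olanzapine against placebo they were 12 and 0 of 82 in astrocytes (46.7% and 2.52%), 21 and 0 of 83 in neuroblasts (50% and 2.31%) and 35 and 0 of 81 in neurons (49.4% and 3.18%). They were 32 and 0 of 82 in the class labelled oligodendrocyte (49.8% and 2.41%) and 48 and 1 of 80 in the class labelled olig precursor (49.1% and 3.06%). For haloperidol against olanzapine they were 64 and 1 of 82 in astrocytes (52.3% and 2.95%), 72 and 1 of 83 in neuroblasts (50.1% and 2.57%) and 33 and 0 of 81 in neurons (51% and 1.09%). They were 69 and 2 of 82 in the class labelled oligodendrocyte (50.9% and 4.34%) and 41 and 1 of 83 in the class labelled other (50% and 3.99%).

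The members with the smallest p between the drugs were Rpl35 in astrocytes (0.61 ± 0.23), with 378.7 ± 103 CPM in haloperidol and 228 ± 80.0 CPM in olanzapine mice (n = 5 each), Rps27a in the class labelled oligodendrocyte (0.54 ± 0.21) and Rpl13a in neuroblasts (0.45 ± 0.19). In neurons it was Rpl5, which binds the 5S ribosomal RNA (−0.34 ± 0.26), and in the class labelled other it was Rps19bp1 (1.09 ± 0.51). Rpl35 was among the 3 smallest in each class but that labelled oligodendrocyte. For haloperidol against placebo the smallest in neurons was Rps27rt (−0.39 ± 0.35), and for olanzapine it was Rpl36al (−0.30 ± 0.37).

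Other genes of protein synthesis were compared by lists. None of the list genes was called in any class or comparison. Against placebo this was 0 of 729 tests for haloperidol and 0 of 831 for olanzapine, beside 0.00518% and 0% of all gene tests. In haloperidol microglia, 48.3% of all genes tested were higher than in placebo, with a median of −0.02. There the 3 other ribosomal components, Fau and Rack1 among them, had a median log2 fold change of 0.32 with 2 higher. The mitochondrial ribosome had a median of 0.20 with 31 of 36 higher (Mrpl20 0.66 ± 0.29). Of 8 elongation genes 6 were higher (median 0.21), with Tpt1, a growth-related TOP mRNA, at 0.59 ± 0.19 (edgeR adjusted p = 0.797). Initiation factors had 15 of 30 higher (median −0.00), ribosome assembly genes 8 of 18 (median −0.02) and mTOR and TOP regulators 9 of 15 (median 0.07). In the class labelled other, haloperidol gave medians of −0.13 for the 3 other components, −0.17 for elongation, −0.01 for initiation, 0.07 for assembly, 0.08 for regulators and −0.00 for the mitochondrial ribosome. Rack1, a scaffold on the 40S subunit, was at 0.38 ± 0.18 in haloperidol microglia and at −0.55 ± 0.23 in haloperidol cells of the class labelled other (edgeR adjusted p = 0.839 and 0.995). Olanzapine gave medians of 0.07 and −0.26 for the other components, 0.07 and −0.07 for elongation, and 0.07 and −0.02 for initiation in microglia and in the class labelled other. It gave −0.05 and 0.15 for assembly, −0.03 and −0.01 for regulators and −0.00 and −0.08 for the mitochondrial ribosome.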

How the data were processed

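The authors deposited counts of UMIs, whole numbers per gene and cell, with a mouse, a drug and a cell class for each cell. The tools were Cell Ranger and Seurat and the build mm10, per the submitters' processing notes; the sources used here give no versions and no strand setting. From these counts, cells over 20% mitochondrial UMIs (23), Scrublet doublets (scanpy 1.11.5, run for each library; 81, of which 38 in olanzapine 2) and the copied cells of placebo 5 (211) were removed. Counts were summed per mouse and class, for mice with at least 10 cells, and tested with edgeR 4.0.16 (filterByExpr, TMM scaling, robust quasi-likelihood test, all groups in 1 fit), with Benjamini-Hochberg adjustment over all genes of a class and comparison. Differences between classes used limma 3.58.1 on within-mouse log2 differences. Only the edgeR fit was tested on simulated data. CPM values are per 1000000 UMIs of a mouse's class, before TMM. DESeq2 1.42.0 was an alternative. The members and lists were chosen with earlier results of these data known. The text names the 3 members with the smallest p per class and comparison, the 5 highest, the 6 widest across classes, and the paralogues. Some items that this rule covers are not reported here. Rpl10a was named after its values were seen. The labels number mice 1 to 15 with no batch, and each mouse is a separate animal. Differences between classes are given as descriptions. The 3′ ends were compared by words of 31 bases over the last 300 bases of the longest coding transcript in GENCODE vM21. New clusters used 2000 variable genes, 30 components and Leiden resolution 1, without the members, and were named only from listed markers.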

Additional observations from a re-analysis of the deposited data

How the results depend on the processing

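The 0 calls held in each comparison under all alternatives run. These were size factors of DESeq2, DESeq2 itself, no filter on low counts, at least 20 cells, doublets kept, new clusters and scaling without the members. Further ones were leaving out the 4 mice with the fewest cells or each mouse, and adjustment over all classes. Both treatments of the copied cells were added after seeing the data. The difference between microglia and the class labelled other was not run with DESeq2 itself, new clusters or adjustment over all classes. Its 0 calls held under the other alternatives. Median log2 fold changes moved by less than the spread between mice in all 470 alternatives. Several medians changed sign within that spread, as given above, so this criterion says little about medians near 0. Leaving out single mice gave 0.24 to 0.37 for haloperidol in microglia, −0.31 to −0.10 for haloperidol and −0.27 to −0.16 for olanzapine in the class labelled other. Shares moved by more than that spread in 9 of 246 alternatives. Taking the median over cells gave 1.90% in astrocytes and 8.47% in the class labelled other of olanzapine mice, 9.15% in the class labelled other of placebo mice and 6.296% in the class labelled olig precursor of haloperidol mice. In that last class, with 2 mice, doublets kept gave 6.26% and leaving out paralogues 6.295%. Endothelial-like clusters in place of the class labelled other gave 12.3%, 10.6% and 12.5% in haloperidol, olanzapine and placebo mice. Rpl36al in neurons of olanzapine mice (−0.30) reversed to 0.047 without the 4 mice with the fewest cells, lay between −0.50 and 0.0095 when single mice were left out (0.0095 without placebo 4), and the cause was not tested. No paired analysis was possible because the mice carry numbers 1 to 15 with no number shared between groups. Few mice per class and 11 to 20 cells in some limit what could be called.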
